A study of Mus musculus with 24 samples.

Results

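The 9 claudin genes described here are Cldn1, Cldn2, Cldn3, Cldn4, Cldn7, Cldn8, Cldn12, Cldn15 and Cldn23, taken as a fixed list of intestinal claudins from the 45706 genes of 2 count tables. The tables hold RNA-Seq read counts from mouse small intestinal (SI) and colonic (COL) organoids, which are epithelial spheres grown from crypts in Matrigel. Each of 12 groups (2 tissues, 3 genotypes, off or on) has 2 libraries, 24 in all.

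The genotypes were BraffloxV600E/+;Villin::CreERT2 (called BRAF), Trp53LSL-R172H/+;Villin::CreERT2 (p53) and BraffloxV600E/+;Trp53LSL-R172H/+;Villin::CreERT2 (BRAFp53), all on the C57BL/6N strain. Every group, controls included, carried the Villin::CreERT2 transgene, which places a tamoxifen-dependent Cre under the promoter of an intestinal epithelial gene. On organoids received 4-hydroxytamoxifen for 24 h (0.5 µM for SI, 3.5 µM for COL) and off organoids received ethanol. RNA was taken at day 8 in SI and day 3 in COL, and the COL medium also held Wnt3a and CHIR99021, so tissue, dose, time and medium cannot be told apart. Each genotype and tissue was 1 donor culture, so genotype and donor cannot be told apart. The p-values of on versus off, and of differences between such responses, measure the spread between libraries of 1 culture. Those of off SI against off COL organoids measure the spread between cultures. The study's methods name 3 donor mice, 1 for each genotype, which would pair the SI and COL cultures. In the p53 and BRAFp53 genotypes, however, the Y-linked Ddx3y was at 48.5 to 63.8 CPM in the COL libraries and at most 0.0633 CPM in the SI libraries (CPM is defined below).

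Claudins are membrane proteins of the tight junction, the belt that closes the gap between neighbouring epithelial cells. Some of them line the gap with a paracellular channel: Cldn2 and Cldn15 form pores for small cations and water. Others tighten it, among them Cldn1, Cldn3, Cldn4, Cldn8 and Cldn23, which are grouped here as sealing claudins. Cldn7, which also sits along the lateral membrane, and Cldn12 have been described in both ways and were kept apart. Along the crypt axis of the intestine, Cldn2 is known as a crypt claudin and Cldn4 and Cldn23 as claudins of the differentiated surface.

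Library totals ran from 44.4 to 78.2 M counts (1 M is 1e6). Trp53 had 149 CPM off and 297 CPM on in COL BRAFp53, 218 and 418 CPM in COL p53, 150 and 218 CPM in SI BRAFp53 and 157 and 267 CPM in SI p53 (group means, n = 2, CPM is counts per 1e6 of the library, scaled by TMM over all 24 libraries), and the off and on libraries did not overlap in any of these cultures. The counts do not separate mutant from wild-type reads. Markers of stroma, vessels, blood and muscle summed to 1.3 to 10.4 CPM over 11 genes in every library, with Hbb-bs at 0 in 11 of the 12 groups. The SI BRAF on replicate 1 library stood apart from its culture: it held Xist, the RNA of the inactive X chromosome, at 17 CPM, against 0.228 to 0.475 CPM in the other libraries of that culture and 113 to 164 CPM in the SI p53 and SI BRAFp53 libraries. It held the Y-linked Ddx3y at 35.8 CPM, as the other libraries of its culture did (33.1 to 39.2 CPM). Whether RNA of another culture was in this library was not tested. Calls in SI BRAF were also made without it, and levels are given per library. The COL BRAF culture carried Gata4, a factor of the proximal small intestine, at 32.3 to 50 CPM, against at most 2.62 CPM in the other COL cultures and at least 80.4 CPM in SI.

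In the annotation (GRCm38) the members lie on chromosomes 5 (Cldn3, Cldn4, Cldn12, Cldn15), 16 (Cldn1, Cldn8), X (Cldn2), 11 (Cldn7) and 8 (Cldn23). Cldn3 (chr5:134986214-134987472, plus strand) and Cldn4 (chr5:134945119-134946934, minus strand) lie close together, each consist of a single exon and are read away from each other. Cldn15 (chr5:136966616-136975858) lies on the same chromosome, and Cldn2 is at chrX:139800828-139811386. Cldn3 shares 40 bases, 3.18% of its exons, with Wbscr25 on the opposite strand, and counting by strand was not stated, so those reads cannot be assigned.

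RefSeq promoter entries (GRCm38.p6) matched 7 of the 9 members, all but Cldn8 and Cldn23. The 250 bases before the start are shown for the pair Cldn4 and Cldn3, which moved together in the results below, and for Cldn15 and Cldn2, the pore-forming genes. They are written 5′ to 3′ on the gene's strand. Capitals mark matches on either strand to any of 4 short motifs. The AP-1 motif was searched as TGANTCA, which reads alike on both strands. The GC box was searched as GGGCGGG. The ETS motif, the target of another factor family, was searched as CCGGAAG. The TATA box was searched as TATAAA.
Cldn4, chr5:134946935-134947184, minus strand: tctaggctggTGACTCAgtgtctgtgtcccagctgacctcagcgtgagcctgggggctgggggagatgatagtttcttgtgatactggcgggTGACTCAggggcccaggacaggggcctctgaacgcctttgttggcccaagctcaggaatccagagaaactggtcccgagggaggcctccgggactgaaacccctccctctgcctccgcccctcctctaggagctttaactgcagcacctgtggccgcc
Cldn3, chr5:134985964-134986213, plus strand: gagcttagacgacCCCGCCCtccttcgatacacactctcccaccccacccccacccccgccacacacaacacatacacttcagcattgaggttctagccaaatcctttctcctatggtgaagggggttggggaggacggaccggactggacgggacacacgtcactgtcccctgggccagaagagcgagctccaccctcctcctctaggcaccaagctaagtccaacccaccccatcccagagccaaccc
Cldn15, chr5:136967619-136967868, plus strand, with its last 25 bases in an exon of another Cldn15 transcript: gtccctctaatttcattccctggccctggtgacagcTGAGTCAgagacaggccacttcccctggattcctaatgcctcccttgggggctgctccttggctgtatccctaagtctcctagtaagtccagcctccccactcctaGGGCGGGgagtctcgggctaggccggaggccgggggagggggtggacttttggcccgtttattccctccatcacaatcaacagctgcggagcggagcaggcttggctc
Cldn2, chrX:139800558-139800807, plus strand: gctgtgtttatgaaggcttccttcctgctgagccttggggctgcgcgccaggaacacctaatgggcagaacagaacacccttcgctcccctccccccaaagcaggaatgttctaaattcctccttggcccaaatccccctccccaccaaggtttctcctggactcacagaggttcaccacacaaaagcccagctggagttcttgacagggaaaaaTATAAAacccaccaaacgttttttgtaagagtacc

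Cldn4 held 2 TGACTCA matches, at bases -240 to -234 and -158 to -152 from the start, and Cldn15 held TGAGTCA at -214 to -208. No other member with a promoter entry had the AP-1 letters in this window, which occur in 6.75% of all 32851 promoter entries cut to this length. A GC box was matched in Cldn3, Cldn15 and 1 of the 2 Cldn7 entries (23.4% of all entries), and a TATA box in Cldn2 at -35 to -30 (12.4%). The ETS letters were absent from the 4 windows printed and present in both Cldn7 and all 3 Cldn12 entries (6.91% of all). AP-1 and ETS factors are known targets of ERK signalling, which BRAFV600E activates. The matches describe letters only.

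Off organoids of the 2 tissues differed most in Cldn4, Cldn8 and Cldn15. Cldn4 ranged from 84.5 to 276 CPM over the 6 COL off libraries (median 102) and from 8.5 to 21.5 CPM over the 6 SI off libraries (median 10), with no overlap. Cldn8 ranged from 15.0 to 28.6 CPM in COL and from 0.865 to 2.24 CPM in SI. Cldn15 went the other way, at 154 to 315 CPM in COL and 551 to 663 CPM in SI. Cldn2, at 366 to 437 CPM in COL and 161 to 302 CPM in SI, was higher in COL in every library. With the 2 off libraries of each culture summed and 3 cultures compared with 3, edgeR's quasi-likelihood test called 5 of the 8 members tested (of all 17789 genes tested, 29.6% were called, 12.6% higher and 17% lower in SI): Cldn4 (log2 SI over COL -3.62 ± 0.51 SE, adjusted p = 0.00399), Cldn8 (-3.95 ± 0.31, adjusted p = 0.00103), Cldn2 (-0.83 ± 0.23, adjusted p = 0.0334) and Cldn12 (-0.56 ± 0.17, adjusted p = 0.0474) were lower in SI, and Cldn15 was higher (1.30 ± 0.24, adjusted p = 0.00936). Cldn12 lost its call without any one of the 6 cultures, and Cldn2 kept it only without the SI BRAFp53 culture (adjusted p from 0.0244 to 0.124 over the 6 refits). Over 7 alternative fits, Cldn12 was called in 3 and Cldn23 in 2. The cultures were not paired by genotype in this test. With genotype as a block, 4 members were called (19.5% of all genes), Cldn12 no longer among them (adjusted p = 0.0695). Leaving out 1 culture left 3 or 4 members called, and Cldn4, Cldn8 and Cldn15 were called each time. Without the COL BRAF culture, Cldn2 gave -0.87 (adjusted p = 0.0507) and Cldn23, not called with all cultures (-1.20 ± 0.41, adjusted p = 0.0672), gave -1.50 (adjusted p = 0.0203). Cldn3 (0.04 ± 0.23) and Cldn7 (0.13 ± 0.20) were not called (adjusted p = 0.906 and 0.661).

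Levels between genes were compared per length, as RPKM (CPM divided by the union exon length in kilobases). In every off group Cldn7 and Cldn3 led: Cldn7 had 427 to 663 RPKM and Cldn3 309 to 585 RPKM as group means, and only in COL BRAFp53 off did the libraries of the 2 genes overlap. In SI off organoids the third place was held by Cldn15 (282 to 289 RPKM) and the fourth by Cldn2 (49.4 to 90.4 RPKM), while Cldn4 came after Cldn23, at 5.16 to 10.2 RPKM. In COL off organoids Cldn15 (73.8 to 138 RPKM), Cldn2 (111 to 127 RPKM) and Cldn4 (52.1 to 150 RPKM) followed in an order that differed between cultures. Cldn8 and Cldn12 stayed at or under 12.1 RPKM in all off groups. Cldn1, a main claudin of the skin, was at most 7 counts in any off library.

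The 3 COL cultures were not alike before induction. COL p53 off had Cldn4 at 276 and 269 CPM, against 108 and 84.5 CPM in COL BRAF off and 94.0 and 95.3 CPM in COL BRAFp53 off, a 2.88-fold difference between the highest and lowest culture means. For Cldn23 the same culture stood 3.39-fold over COL BRAF off (82.8 against 24.5 CPM), and for Cldn3 1.89-fold (737 against 389 CPM). The summed level of 8 intestinal epithelium markers (Epcam, Cdh1, Vil1, Krt8, Krt18, Krt19, Krt20 and Cdx2) was also highest in that culture, at 19561 to 19573 CPM, against 10015 to 10743 CPM in the other COL off libraries. Markers of the colon region (Hoxb13, Car4, Aqp8, Slc26a3 and Car1) differed more, with sums of 14418 and 18904 CPM in COL p53 off, 1369 and 1394 CPM in COL BRAF off, and 3490 and 4293 CPM in COL BRAFp53 off. The part of these markers in the claudin levels was not tested. Among the SI off cultures, the highest mean was 1.98 times the lowest for Cldn4 (18.6 CPM in SI BRAF and 9.37 CPM in SI p53), 1.83 times for Cldn2 (301 CPM in SI BRAFp53 and 164 CPM in SI BRAF) and 1.56 times for Cldn8. It was at most 1.29 times the lowest for Cldn3, Cldn7, Cldn12, Cldn15 and Cldn23.

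**Figure D1:**
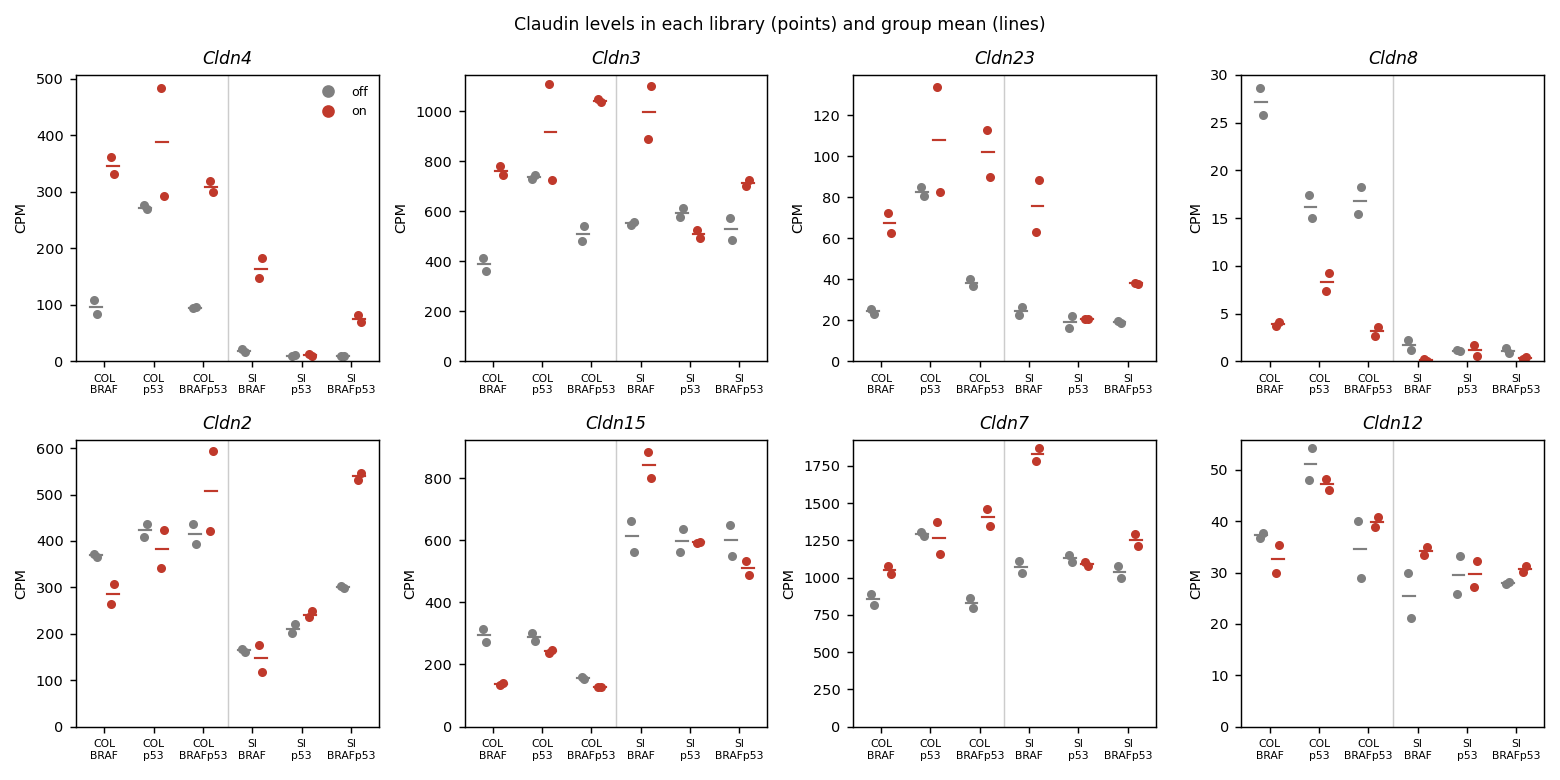
Level of 8 claudins in CPM (y axis, linear, from 0) in each of the 24 libraries (points; grey off, red on) with group means (lines), by tissue and genotype. Cldn4 is higher in on than off libraries in each BRAF and BRAFp53 culture, and Cldn8 is lower; Cldn1, at most 0.717 CPM, is not drawn.

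Induction of BRAFV600E, alone or with p53R172H, raised 3 sealing claudins in both tissues. Cldn4, Cldn3 and Cldn23 passed the test as higher in all 4 BRAF-bearing comparisons, whereas Cldn8 was called lower in 3 of them. Of the 9 members tested in COL BRAF, 4 rose and 2 fell (of all 18972 genes tested, 19.9% were called, 10.3% higher and 9.61% lower), and in COL BRAFp53 again 4 rose and 2 fell (17.7%, with 9.95% higher and 7.76% lower). Of the 8 tested in SI BRAF, 5 rose and 1 fell (of all 16856 genes, 31.7% were called, 17.5% higher and 14.2% lower), and in SI BRAFp53 4 rose (11.5%, with 6.98% higher and 4.53% lower). The median log2 fold change of the members tested was 0.30, 0.71, 0.58 and 0.33 in these 4 comparisons, against -0.01, -0.04, -0.06 and -0.03 over all genes. As a scale for other tests, DESeq2 called 24.5%, 22.7%, 33.7% and 15% of all genes in these comparisons, limma-voom 19.8%, 19%, 30.9% and 13.2%, and edgeR without a filter on low counts 14.7%, 13.4%, 21.1% and 9.37% (0.576% in SI p53). Among genes with at least 10 counts in every library, edgeR called more, at 29.3%, 26.8%, 43.2% and 16.6%. All fold changes, standard errors and adjusted p-values of on versus off come from edgeR's quasi-likelihood test over the 12 libraries of a tissue, with a call at a Benjamini-Hochberg adjusted p under 0.05.

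Cldn4, a surface claudin that tightens the junction against cations, had the largest log2 rise among the members called in each of the 4 comparisons. In COL BRAF it went from 108 and 84.5 CPM off to 361 and 331 CPM on, and in COL BRAFp53 from 94.0 and 95.3 CPM to 319 and 300 CPM. In SI BRAF it went from 21.5 and 15.6 CPM to 147 and 182 CPM, and in SI BRAFp53 from 9.83 and 9.82 CPM to 81.6 and 68.8 CPM. All on libraries lay above all off libraries of their culture. The log2 fold changes were 1.85 ± 0.19 (adjusted p = 8.43e-05), 1.66 ± 0.19 (0.000204), 3.12 ± 0.21 (2.65e-07) and 2.92 ± 0.21 (2.07e-06), in this order. Every refit without 1 library and every alternative test kept these 4 calls, and without the SI BRAF on replicate 1 library the SI BRAF value was 3.28 (adjusted p = 2.25e-07). Even so, Cldn4 in on SI organoids stayed under the level of the on COL organoids.

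Cldn3 is a broadly expressed sealing claudin of the intestine. It roughly doubled in COL, from 415 and 363 CPM to 781 and 745 CPM with BRAFV600E alone (log2 0.97 ± 0.16, adjusted p = 0.00133) and from 482 and 540 CPM to 1049 and 1038 CPM in COL BRAFp53 (0.98 ± 0.16, adjusted p = 0.00154). In SI BRAF it rose from 547 and 559 CPM to 891 and 1102 CPM (0.82 ± 0.12, adjusted p = 0.000138, and 0.98 without replicate 1 of the on group). In SI BRAFp53 the libraries were at 575 and 486 CPM off and 700 and 724 CPM on (0.41 ± 0.11, adjusted p = 0.0352). That last call was the least stable of the 4: it held without off replicate 1 (adjusted p = 0.0399) but not without off replicate 2 (0.255), on replicate 1 (0.093) or on replicate 2 (0.183).

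Cldn23, a claudin of the differentiated intestinal surface, rose from 25.7 and 23.2 CPM to 72.3 and 62.5 CPM in COL BRAF (log2 1.46 ± 0.20, adjusted p = 0.000394) and from 40.3 and 36.6 CPM to 113 and 90 CPM in COL BRAFp53 (1.35 ± 0.19, adjusted p = 0.000749). In SI BRAF it rose from 22.4 and 26.7 CPM to 63.1 and 88.4 CPM (1.59 ± 0.18, adjusted p = 1.92e-05, and 1.84 without on replicate 1). In SI BRAFp53 it rose from 19.4 and 18.8 CPM to 38.3 and 37.7 CPM (0.97 ± 0.17, adjusted p = 0.00266). No library left out removed any of these calls.

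Cldn8, known from the distal colon and kidney, went against the other sealing members. It fell in COL BRAF from 28.6 and 25.8 CPM to 3.66 and 4.08 CPM (log2 -2.81 ± 0.21, adjusted p = 1.1e-05) and in COL BRAFp53 from 15.4 and 18.3 CPM to 2.64 and 3.60 CPM (-2.49 ± 0.21, adjusted p = 3.79e-05), with no overlap between off and on. In SI the gene rested on few reads: SI BRAF had 99 and 69 counts off and 11 and 0 counts on (-3.73 ± 0.89, adjusted p = 0.00613), and SI BRAFp53 had 70 and 45 counts off and 12 and 26 counts on (-1.72 ± 0.78, adjusted p = 0.195). The reads of SI BRAF on came only from replicate 1, the library with Xist, and leaving it out kept the call (adjusted p = 0.000899) against a group at 0. Cldn1 had 47 counts and 1 count in the 2 COL BRAF on libraries and none in the off libraries, which was not called (adjusted p = 0.0855), and at most 14 counts in any other library.

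The pore-forming members were Cldn15 and Cldn2. Cldn15, a cation pore of the small intestine, fell in COL BRAF from 315 and 273 CPM to 134 and 139 CPM (log2 -1.10 ± 0.10, adjusted p = 3.49e-05). In COL BRAFp53 it went from 159 and 154 CPM to 128 and 129 CPM (-0.33 ± 0.10, adjusted p = 0.0372), a call that was lost without any one of the 4 libraries (adjusted p from 0.116 to 0.187). In SI BRAF it was higher on than off, at 663 and 563 CPM off and 886 and 801 CPM on (0.43 ± 0.12, adjusted p = 0.0131). Without the SI BRAF on replicate 1 library that difference was 0.38 (adjusted p = 0.0601), and without off replicate 2 it was 0.31 (adjusted p = 0.141). In SI BRAFp53 it had 651 and 551 CPM off and 532 and 488 CPM on, which was not called (-0.25 ± 0.12, adjusted p = 0.202).

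Cldn2, the cation and water pore of the crypt, was called in 1 comparison with all libraries: it rose in SI BRAFp53 from 302 and 299 CPM to 532 and 547 CPM (log2 0.83 ± 0.15, adjusted p = 0.00277), and all 4 refits without 1 library kept this call. In SI BRAF the values were 167 and 161 CPM off and 176 and 117 CPM on, which was not called (-0.19 ± 0.15, adjusted p = 0.365). The 2 on libraries fell on either side of the off libraries, and the higher one was replicate 1, the library with Xist. Without it the difference was -0.50 (adjusted p = 0.00506), so that 4 of the 8 members rose and 2 fell in SI BRAF, in place of 5 and 1 (29.7% of all genes were called). In COL, Cldn2 had 372 and 366 CPM off and 265 and 308 CPM on in COL BRAF (-0.36 ± 0.16, adjusted p = 0.133, called in 2 of 7 alternative fits), where both on libraries lay below both off libraries, and 436 and 394 CPM off and 421 and 594 CPM on in COL BRAFp53 (0.24 ± 0.16, adjusted p = 0.332).

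Cldn7, the most abundant claudin per length in off organoids, was called higher in 3 of the 4 comparisons. In SI BRAF it rose from 1114 and 1033 CPM to 1784 and 1871 CPM (log2 0.74 ± 0.09, adjusted p = 4.38e-05, and 0.79 without on replicate 1) and in COL BRAFp53 from 863 and 799 CPM to 1461 and 1349 CPM (0.71 ± 0.10, adjusted p = 0.000626). In COL BRAF it went from 893 and 813 CPM to 1080 and 1023 CPM (0.30 ± 0.10, adjusted p = 0.0463), a call that was lost without any one of the 4 libraries (adjusted p from 0.0891 to 0.266). SI BRAFp53 had 1080 and 996 CPM off and 1295 and 1213 CPM on (0.26 ± 0.09, adjusted p = 0.088). Cldn12 was not called in any on versus off comparison with all libraries. In SI BRAF (0.39) it was called in 1 of 4 refits without 1 library, without off replicate 1 (0.67, adjusted p = 0.0201), where 6 members rose and 1 fell. Over the 4 refits, 5 to 7 members were called in SI BRAF. Its group means ran from 32.6 to 51.1 CPM in COL and from 25.5 to 34.2 CPM in SI.

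**Figure D2:**
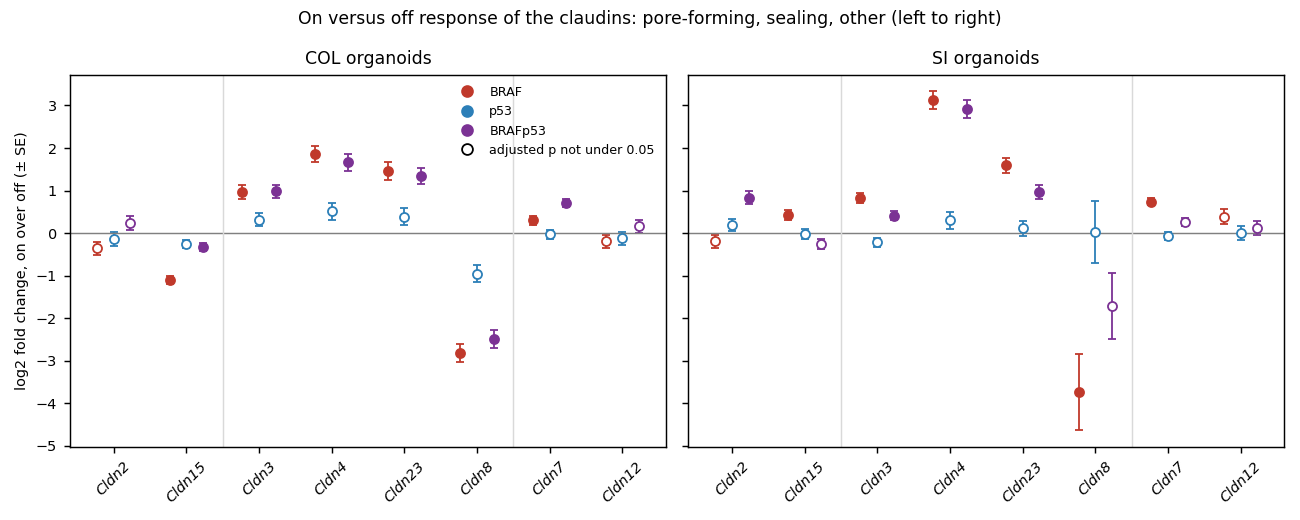
Log2 fold change of on over off (y axis, bars ± SE) for 8 claudins in COL (left) and SI (right), by genotype (colour), with filled points at an adjusted p under 0.05. In SI BRAF, Cldn4 reaches 3.12 and Cldn8 -3.73, and in COL BRAF Cldn8 is at -2.81, while no p53 point is filled.

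With p53R172H alone, edgeR called no member in either tissue (of all genes, 0.142% were called in COL, 0.0316% higher and 0.111% lower, and 0% in SI). An unadjusted p under 0.05 was reached by 1583 of the 18972 COL genes and 873 of the 16856 SI genes. DESeq2 called 324 genes in COL (1.71%), Cldn8 among them (log2 -0.94, adjusted p = 0.00167), and 65 in SI (0.386%), with no member. limma-voom called 37 genes (0.195%) and 1 gene (0.00593%), with no member in either tissue. In COL p53, Cldn8 had 17.4 and 15.0 CPM off and 7.37 and 9.24 CPM on (log2 -0.96 ± 0.20, adjusted p = 0.111), and edgeR without a filter on low counts called it (-0.97, adjusted p = 0.000713) together with Cldn4 (0.50, adjusted p = 0.00664), at 1.87% of all genes. Cldn4 had 276 and 269 CPM off and 484 and 292 CPM on (0.51 ± 0.19, adjusted p = 0.441). The upper value belonged to replicate 1 of the on group, which also had the higher level of Cldn3 (1110 against 724 CPM) and Cldn23 (134 against 82.8 CPM), and of the summed epithelium markers (28375 against 19475 CPM). Without on replicate 2, Cldn4 gave 0.82 (adjusted p = 0.0334), and without on replicate 1 it gave 0.10 (adjusted p = 0.888). Of the cell type markers, 3 of 10 enterocyte markers were called lower in COL p53: Sis (-2.0), Apoa1 (-1.85) and Anpep (-1.38). The 10 summed to 2529 and 2415 CPM off and 1992 and 1521 CPM on there, and their median log2 fold change was -1.38. In SI p53 the 8 members tested had log2 fold changes from -0.22 (Cldn3) to 0.30 (Cldn4).

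The response of the members was compared between genotypes within a tissue, as BRAFp53 response minus BRAF response. In COL, Cldn15 was the member called (of all genes, 0.907% were, 0.532% higher and 0.374% lower): the log2 difference was 0.77 ± 0.14 (adjusted p = 0.0422), a smaller fall in COL BRAFp53. The on libraries of both cultures lay between 128 and 139 CPM, and the off libraries at 315 and 273 CPM in BRAF but 159 and 154 CPM in BRAFp53. The call held in 2 of the 8 refits without 1 library (without COL BRAFp53 off replicate 1 or on replicate 1) and was lost in the other 6, with adjusted p from 0.0536 to 0.16.

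In SI, 3 of 8 members differed between the BRAFp53 and BRAF responses (of all genes, 8.2% were called, 1.93% higher and 6.28% lower). The difference was above 0 for Cldn2 (1.02 ± 0.21, adjusted p = 0.0103) and below 0 for Cldn7 (-0.48 ± 0.13, adjusted p = 0.0338) and Cldn15 (-0.69 ± 0.17, adjusted p = 0.023). The estimates behind it were of opposite sign for Cldn15, 0.43 in SI BRAF and -0.25, not called, in SI BRAFp53. The Cldn2 difference held in all 8 refits without 1 library, Cldn15 in 5 and Cldn7 in 3. Without SI BRAF on replicate 1, 6 members were called (11.8% of all genes), with Cldn2 at 1.34 (adjusted p = 0.000172), Cldn15 at -0.62 (0.0435) and Cldn7 at -0.52 (0.0278), and with Cldn3 (-0.56, 0.0317), Cldn23 (-0.85, 0.0279) and Cldn8 (0.0288) added. Without SI BRAF off replicate 2, SI BRAFp53 off replicate 1 or SI BRAFp53 on replicate 2, Cldn2 alone was called, and without SI BRAF on replicate 2 or SI BRAFp53 on replicate 1 there were 2. For Cldn4 the difference was -0.20 ± 0.27 in SI and -0.19 ± 0.26 in COL (adjusted p = 0.731 and 0.745).

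Between tissues, in a fit over all 24 libraries, the SI minus COL difference of the BRAF response was called above 0 for 3 members (of all 19673 genes, 10.7% were called, 7.4% higher and 3.31% lower): Cldn15 (log2 difference 1.58 ± 0.16, adjusted p = 6.15e-06), Cldn4 (1.31 ± 0.30, adjusted p = 0.00741) and Cldn7 (0.48 ± 0.13, adjusted p = 0.0244). Cldn4 and Cldn7 were called higher in both tissues, and Cldn15 lower in COL and higher in SI. The Cldn15 difference was called in all 8 refits without 1 library, Cldn4 in 7 (not without SI BRAF off replicate 2, adjusted p = 0.0566, where Cldn15 alone was called) and Cldn7 in 4. Without COL BRAF off replicate 1, COL BRAF on replicate 2 or SI BRAF on replicate 2, 2 were called. Without SI BRAF on replicate 1 the same 3 members were called, at 1.51, 1.47 and 0.52. In the BRAFp53 response, Cldn4 alone was called (1.30 ± 0.30, adjusted p = 0.0206, with 3.52% of all genes called, 2.13% higher and 1.39% lower). It was called in 2 of the 8 refits without 1 library and lost in 6, with adjusted p from 0.0417 to 0.0759 over all 8. Cldn15 had a difference of 0.12 ± 0.16 there (adjusted p = 0.794).

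To set pore-forming against sealing members, the mean log2(CPM + 1) of Cldn2 and Cldn15 was taken minus that of Cldn1, Cldn3, Cldn4, Cldn8 and Cldn23 in each library. The difference was lower in on than in off libraries in all 4 BRAF-bearing cultures. COL BRAF had 3.41 and 3.45 off and 2.11 and 2.44 on, and COL BRAFp53 3.07 and 2.92 off and 2.46 and 2.67 on. SI BRAF had 4.40 and 4.42 off and 3.97 and 3.44 on, with the library with Xist at the higher of the 2 on values, and SI BRAFp53 5.16 and 5.15 off and 4.77 and 4.72 on. The means thus moved by -1.16, -0.43, -0.70 and -0.41 log2 units. Off and on overlapped by this measure in COL p53 (2.8 and 2.82 against 2.29 and 2.85) and in SI p53 (4.87 and 4.89 against 4.79 and 5.11). No test was run on this score, since its members were chosen with results of these data known. It weights each gene alike, so that lower Cldn8 values raised it in every BRAF-bearing culture. Cldn1, near the floor, is also 1 of its 5 sealing members. In COL BRAF on, the library with 47 Cldn1 counts had the score of 2.11 and the one with 1 count that of 2.44. The ratio of summed RPKM of the 2 classes, which the abundant genes lead, was 0.627 and 0.666 in COL BRAF off and 0.166 and 0.195 in COL BRAF on, and 0.840 and 0.869 in SI BRAFp53 off against 0.661 and 0.622 on. By this ratio the p53 cultures did not overlap either: COL p53 had 0.338 and 0.33 off and 0.175 and 0.311 on, and SI p53 0.691 and 0.724 off and 0.798 and 0.866 on, in the other direction. The summed RPKM of the pore-forming pair alone fell in COL BRAF, from 260 and 239 off to 143 and 158 on. In SI BRAF it rose, from 362 and 314 to 470 and 412. Off and on overlapped in COL BRAFp53 (206 and 191 off, 187 and 240 on) and SI BRAFp53 (397 and 350 off, 411 and 394 on).

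**Figure D3:**
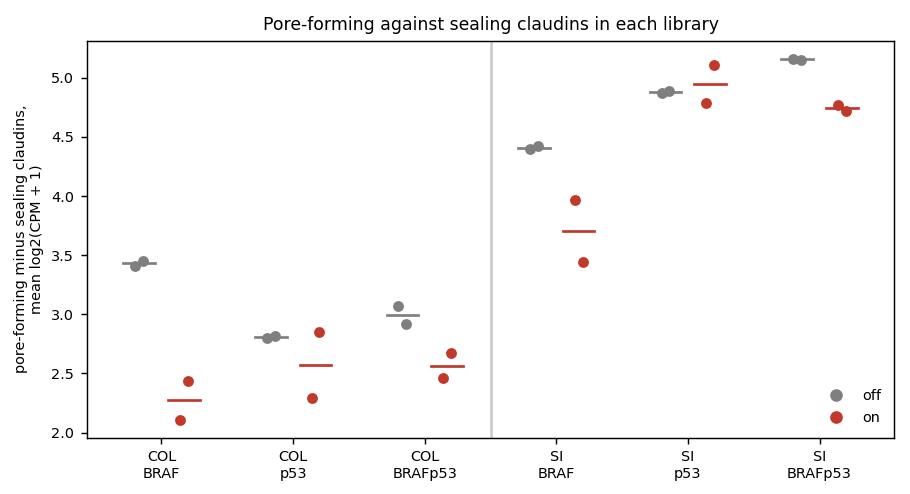
Mean log2(CPM + 1) of Cldn2 and Cldn15 minus that of Cldn1, Cldn3, Cldn4, Cldn8 and Cldn23 (y axis, log2 units) in each library (points; grey off, red on), with group means (lines). In COL BRAF the off libraries sit at 3.41 and 3.45 and the on libraries at 2.11 and 2.44, and in both p53 cultures off and on overlap.

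The total of the 9 claudins also grew in the 4 BRAF-bearing cultures. Their counts summed to 0.219% and 0.199% of the scaled library in COL BRAF off and 0.273% and 0.265% on, and to 0.213% and 0.207% off and 0.353% and 0.355% on in COL BRAFp53. In SI BRAF the sum went from 0.257% and 0.238% to 0.398% and 0.420%, and in SI BRAFp53 from 0.267% and 0.239% to 0.321% and 0.311%. Off and on overlapped in COL p53 (0.318% and 0.315% off, 0.374% and 0.298% on). In SI p53 the sum was lower on (0.255% and 0.264% off, 0.252% and 0.248% on). Within that pool, per length, Cldn4 grew from 4.87% ± 0.46 to 12.4% ± 0.39 in COL BRAF, and Cldn15 shrank from 12.8% ± 0.30 to 4.20% ± 0.22 (SD, n = 2). Cldn3 passed Cldn7 as the first member in COL BRAF on (606 against 540 RPKM) and COL BRAFp53 on (829 against 721 RPKM), where the libraries of the 2 genes did not overlap. Cldn3 was also first by its mean in COL p53 on (728 against 650 RPKM), where the libraries of the 2 genes overlapped, after Cldn7 had led in COL p53 off. In SI the first 3 places (Cldn7, Cldn3, Cldn15) were the same off and on, and Cldn4 went from 0.402% to 2.46% of the pool in SI BRAFp53.

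**Figure D4:**
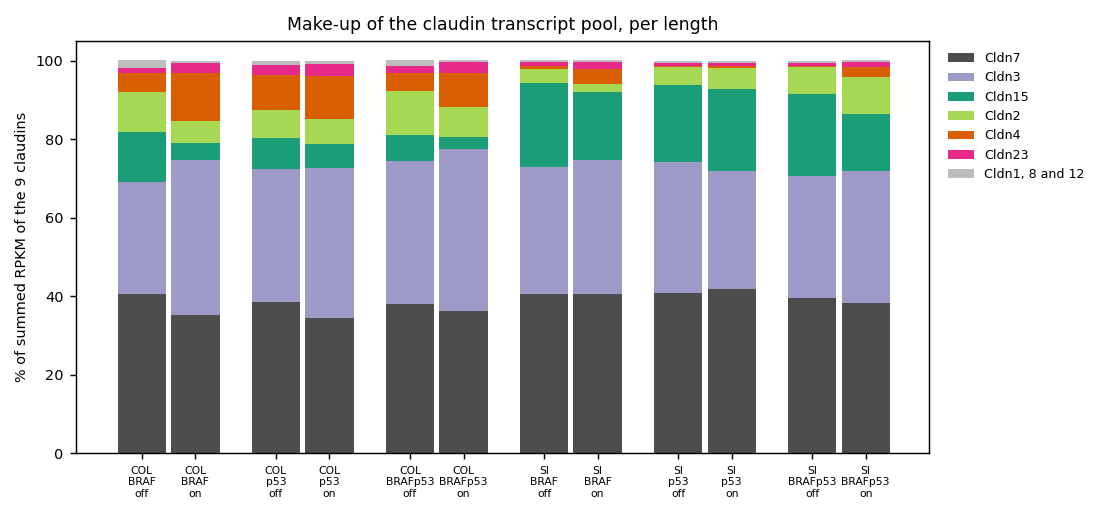
Share of each claudin in the summed RPKM of the 9 genes (y axis, % from 0, means of 2 libraries) for each group. Cldn7 and Cldn3 make up the largest parts in all groups, and Cldn4 grows from 4.87% to 12.4% in COL BRAF.

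Markers of several cell types also changed in the same libraries. As a scale for the calls below, 19.9% of all genes were called in COL BRAF, 17.7% in COL BRAFp53, 31.7% in SI BRAF and 11.5% in SI BRAFp53. The 8 epithelium markers summed to 10015 to 10668 CPM in COL BRAF off and 24120 to 26122 CPM on, and to 10481 to 10551 CPM off and 19506 to 21500 CPM on in SI BRAF, with 6 of 8 called higher in each. In COL BRAFp53, 6 of 8 were also called higher (10129 to 10743 CPM off and 24382 to 31246 CPM on), and in SI BRAFp53 5 of 8 (8995 to 9607 CPM off and 13790 to 14227 CPM on). The 10 enterocyte markers summed to 12099 to 15533 CPM in SI BRAF off and 52461 to 57695 CPM on, with all 10 called higher, and to 22145 to 26210 CPM off and 33453 to 34206 CPM on in SI BRAFp53, with 4 higher and 1 lower. In COL BRAF and COL BRAFp53, 2 of the 10 were called higher and 4 lower in each, with median log2 fold changes of -0.32 and -0.56. Their sums were nevertheless 1838 to 1877 CPM off and 2335 to 2648 CPM on in COL BRAF, and 1539 to 1920 CPM off and 1770 to 2856 CPM on in COL BRAFp53. The 8 stem cell markers of the crypt base summed to 657 to 732 CPM in SI BRAF off and 147 to 307 CPM on, all 8 called lower, and 6 of 8 were called lower in each of COL BRAF and COL BRAFp53, where the sums went from 1185 to 1541 CPM over the off libraries to 694 to 918 CPM over the on libraries. In SI BRAFp53, 1 of the 8 stem cell markers was called lower, all 6 goblet cell markers higher (517 to 544 CPM off and 1570 to 1749 CPM on) and 3 of 5 Paneth cell markers higher (206 to 259 CPM off and 271 to 388 CPM on). In SI BRAF, 3 of the 5 Paneth cell markers were called lower (551 to 562 CPM off and 189 to 223 CPM on) and 3 of the 6 goblet cell markers higher (856 to 857 CPM off and 1279 to 1366 CPM on). In each of COL BRAF and COL BRAFp53, 4 of the 6 goblet cell markers were called higher, with sums of 1308 to 1552 CPM off and 2352 to 3329 CPM on. Without SI BRAF on replicate 1, the counts of called epithelium, enterocyte, stem, goblet and Paneth cell markers in SI BRAF were 6, 10, 8, 3 and 3, as with it. Of the 5 colon region markers, 3 were called higher in COL BRAF (1369 to 1394 CPM off and 3203 to 5066 CPM on) and 1 in COL BRAFp53, while in SI BRAF 1 of the 3 tested was called higher, and in SI BRAFp53 all 3 tested were called lower. Without SI BRAF on replicate 1, 1 of the 3 was called higher and 1 lower in SI BRAF. Of the 3 small intestine region markers (Gata4, Fabp6 and Lct), 2 were called higher in SI BRAF and 1 lower in SI BRAFp53, and none was called in COL. In COL, 1 of the 5 Paneth cell markers was called higher with BRAFV600E alone (Mmp7, 0.69) and 1 in COL BRAFp53 (Ang4, 1.16). These were 20% of that list in each culture, near the share of all genes. Also near it were the stem cell markers in SI BRAFp53 (12.5%) and the colon region markers in COL BRAFp53 (20%) and SI BRAF (33.3%). Of the 11 markers of stroma, vessels, blood and muscle, Vim was called higher in COL BRAF (2.73), COL BRAFp53 (1.18) and SI BRAFp53 (1.72), and no other was called. Their sums went from 2.01 to 3.04 CPM off to 8.26 to 10.4 CPM on in COL BRAF, from 4.55 to 4.61 CPM to 7.25 to 8.55 CPM in COL BRAFp53, from 1.3 to 1.9 CPM to 2.9 to 3.29 CPM in SI BRAF, and from 2.08 to 3.29 CPM to 7.95 to 8.24 CPM in SI BRAFp53. In the p53 cultures, the 3 enterocyte markers named above for COL were the ones called among all these lists. The part of these shifts in the claudin changes was not tested, and in bulk RNA fewer cells of a type and less RNA per cell cannot be told apart.

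Across the 24 libraries, with each tissue centred on its own mean, Cldn3, Cldn4, Cldn7 and Cldn23 varied together, with Pearson r from 0.81 to 0.95 between pairs of log2(CPM + 1) values. Cldn8 ran against them (r from -0.79 to -0.61), and Cldn2 had r from -0.27 to 0.16 with the other members but Cldn1, which was left out of this comparison. These libraries share cultures and the same induction, so the values are a description. Of 13040 named genes tested in both tissues, the 3 most like Cldn4 were Ptprr (r = 0.976), S100a6 (0.97) and Ildr1 (0.969). The 3 most like Cldn15 were Aldh1a7 (0.891), Ypel2 (0.89) and Ces2e (0.867), and those most like Cldn2 were Far1 (0.875), Neurog3 (0.858) and Slc12a8 (0.849).

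Of 26 other claudin genes in the annotation, 5 passed the filter on low counts in COL and 3 in SI. Cldn18, the claudin of stomach and lung, was the one called in an on versus off comparison. It was 1 of the 5 tested (20%) in each of COL BRAF and COL BRAFp53, near the 19.9% and 17.7% of all genes called there. It had 83 and 79 counts in COL BRAF off and 351 and 204 on (log2 1.93 ± 0.50, adjusted p = 0.018), and 15 and 5 counts in COL BRAFp53 off and 74 and 56 on (2.64 ± 0.57, adjusted p = 0.00775). It was at most 5.36 CPM in any library, and its COL BRAFp53 call was lost without off replicate 2 of that culture. The COL BRAF call of Cldn18 was lost without off replicate 1, off replicate 2 or on replicate 1 of that culture.

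Of 26 genes whose products bind or accompany claudins at the junction (scaffolds, occludin-type and immunoglobulin-type membrane proteins, polarity proteins), 12 rose and none fell in COL BRAF, 8 rose and none fell in COL BRAFp53, 17 rose and 2 fell in SI BRAF, and 7 rose and 1 fell in SI BRAFp53. These calls were 46.2%, 30.8%, 73.1% and 30.8% of the list, against 19.9%, 17.7%, 31.7% and 11.5% of all genes. Among genes with at least 10 counts in every library, 29.3%, 26.8%, 43.2% and 16.6% were called. Their median log2 fold changes were 0.47, 0.27, 0.58 and 0.10, against -0.01, -0.04, -0.06 and -0.03 over all genes. Without SI BRAF on replicate 1, 16 rose and 2 fell in SI BRAF, and without on replicate 2 there 11 were called, without off replicate 1 12. In COL BRAFp53, fewer partners and a smaller share of all genes were called without off replicate 1, off replicate 2 or on replicate 1. Without off replicate 1 or on replicate 1, the called share of partners was close to that of all genes. A fall was among the calls without off replicate 1. In SI BRAFp53, 4 were called without on replicate 2 and 5 without off replicate 2, and in COL BRAF 8 without on replicate 1. edgeR called no partner with p53R172H alone, and DESeq2 called 1, in SI.

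Ildr1, an angulin that marks the corners where 3 cells meet, changed most in SI. It went from 1.43 and 1.94 CPM to 13.8 and 21.3 CPM in SI BRAF (log2 3.35 ± 0.35, adjusted p = 1.29e-05, and 3.65 without on replicate 1) and from 0.231 and 0.404 CPM to 6.55 and 5.53 CPM in SI BRAFp53 (4.22 ± 0.40, adjusted p = 1.82e-05). In COL BRAFp53 it went from 83.1 and 81.6 CPM to 190 and 158 CPM (1.03 ± 0.16, adjusted p = 0.00111). Like Cldn4 it was low in SI off organoids and higher in COL off organoids. Pard6b, a polarity protein of the Par complex, rose in COL BRAF (1.35 ± 0.19, adjusted p = 0.000495), SI BRAF (1.53 ± 0.15, adjusted p = 7.03e-06) and SI BRAFp53 (1.05 ± 0.15, adjusted p = 0.000408).

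The other partners with the largest called changes were Jam2, a junctional adhesion molecule (3.30 ± 0.66, adjusted p = 0.00461), and Clmp, of the same protein class (1.31 ± 0.40, adjusted p = 0.0368), in COL BRAF, both at under 3 CPM there. In COL BRAFp53 they were the polarity gene Crb3 (0.87 ± 0.12, adjusted p = 0.000784) and the adhesion molecule F11r (0.85 ± 0.12, adjusted p = 0.00077). In SI BRAF, Cxadr, the coxsackie and adenovirus receptor, rose (1.27 ± 0.12, adjusted p = 4.58e-06), and in SI BRAFp53 the cingulin-like scaffold Cgnl1 rose (1.15 ± 0.28, adjusted p = 0.0177). The 3 falls were the scaffold Tjp3 (-0.76 ± 0.18, adjusted p = 0.00514) and the kinase Prkci (-0.46 ± 0.12, adjusted p = 0.0101) in SI BRAF and Mylk, the kinase that contracts the junctional actomyosin ring, in SI BRAFp53 (-0.54 ± 0.12, adjusted p = 0.00862). Mylk was higher in SI BRAF (0.48 ± 0.12, adjusted p = 0.00655), and its BRAFp53 minus BRAF response in SI was called (-1.03 ± 0.17, adjusted p = 0.00233). Without SI BRAF on replicate 1, the SI BRAF values were 1.70 for Pard6b, 1.41 for Cxadr, 0.57 for Mylk, -0.52 for Tjp3 and -0.49 for Prkci, all still called (adjusted p from 4.17e-06 for Pard6b to 0.0485 for Tjp3), and the Mylk difference was -1.10 (adjusted p = 0.00179).

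**Figure D5:**
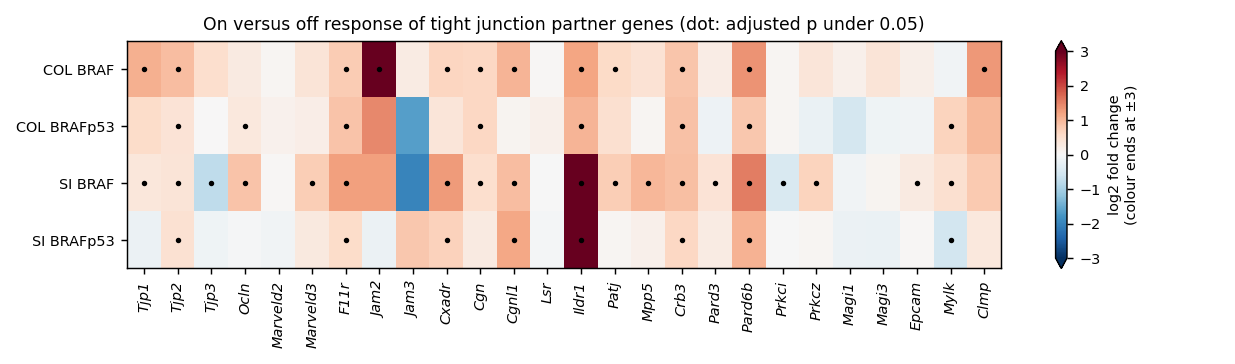
Log2 fold change of on over off (colour, ending at ±3) for 26 tight junction partner genes (columns) in the 4 BRAF-bearing cultures (rows), with dots at an adjusted p under 0.05. Ildr1 is darkest in both SI rows, and the dots number 12, 8, 19 and 8 from top to bottom.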

How the data were processed

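The authors deposited 1 table of raw read counts per gene and tissue (STAR 2.5.2b and Trimmomatic 0.36 are named in the submitters' processing notes, with builds mm9 and mm10; annotation release and use of strand are not given in the sources used here). Of 45706 gene IDs, 45143 matched GENCODE M21. Counts were tested with edgeR 4.0.16 (quasi-likelihood, filterByExpr, then TMM) over the 12 libraries of a tissue, over all 24 for differences between tissues, and on summed off libraries for SI against COL. Alternatives were DESeq2 1.42.0, limma-voom (limma 3.58.1), RLE size factors, no filter, at least 10 counts in every library, a replicate block, the 4 libraries of a genotype and each library left out. CPM used TMM over all libraries. The fit was tested on simulated data. Members, gene lists and named genes were chosen with earlier results of these data known: all 9 members are given, and other claudins called in an on versus off comparison, up to 3 partners per direction and BRAF-bearing comparison with the largest called change, and the 3 genes most like Cldn2, Cldn4 and Cldn15 are named. Counts at 3 or fewer were read as a floor.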

Additional observations from a re-analysis of the deposited data

Results flagged for a closer look

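In 8 cases the on versus off response of a member differed between groups by a test of the difference itself (edgeR's quasi-likelihood test, adjusted p under 0.05). Between genotypes, these were Cldn15 in COL (BRAFp53 minus BRAF, log2 difference 0.77), and Cldn2 (1.02), Cldn7 (-0.48) and Cldn15 (-0.69) in SI. Between tissues (SI minus COL), they were Cldn4 (1.31), Cldn7 (0.48) and Cldn15 (1.58) in the BRAF response, and Cldn4 (1.30) in the BRAFp53 response. Each genotype and tissue is 1 culture, so genotype and donor cannot be told apart, and off levels of some of these genes differed between cultures: the highest COL off culture had 1.88 times the Cldn15 mean of the lowest. Groups of 2 libraries were too small for a check of single outlying libraries.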

How the results depend on the processing

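Results of single members changed direction or side of the threshold in 4 cases under DESeq2, 2 under limma-voom, 1 under RLE size factors and 1 under a minimum of 10 counts in every library (85, 87, 88 and 81 kept both). Without a filter on low counts 8 gained and 5 lost a call, with the replicate block 5 lost a call and 1 changed sign, with the 4 libraries alone 2 lost a call, 1 gained one and 1 changed sign, and with 6 off libraries against 6 Cldn23 gained one. These counts of called members moved by more than 1.5 times: COL p53 gave 1 with DESeq2 and 2 without a filter on low counts, COL BRAFp53 minus BRAF 2 without a filter, and SI minus COL for BRAFp53 2 with DESeq2 and 3 without a filter. Of all genes, these fits called 1.71%, 1.87%, 4.31%, 8.03% and 4.87%, in this order, each more than the main fit. Of the partners, DESeq2 called 13 in COL BRAFp53 and 1 in SI p53, and no filter 1 in SI p53 (22.7%, 0.386% and 0.576% of all genes). Of the other claudins, the minimum of 10 counts left 0 in COL BRAF and COL BRAFp53, the 4 libraries alone gave 0 in COL BRAFp53 and 1 in SI BRAFp53, no filter gave 2 in COL BRAFp53 and 1 in SI BRAF and SI BRAFp53, and DESeq2 1 in SI BRAF. Summed RPKM moved the pore minus sealing difference to -1.84 in COL BRAF and -1.03 in COL BRAFp53. The causes were not tested.

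The replicate numbers were not taken as pairs: same-numbered deviations correlated at -0.093 to 0.118, and all libraries of a culture share a donor. With a replicate block, 5 members were called in COL BRAF (17% of all genes), 5 in COL BRAFp53 (14%), 6 in SI BRAF (29.7%), 4 in SI BRAFp53 (9.83%), 0 in COL BRAFp53 minus BRAF (0.0896%, 17 genes in place of 172) and 2 in SI BRAFp53 minus BRAF (6.42%).

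Leaving out 1 library gave 0 to 1 called members in COL p53 and in COL BRAFp53 minus BRAF, 1 to 6 in SI BRAFp53 minus BRAF, 1 to 4 in SI minus COL for BRAF, 0 to 1 for BRAFp53, and 3 to 4 in off SI against COL (1 culture). It gave 3 to 8 partners in COL BRAFp53, 11 to 18 in SI BRAF and 4 to 7 in SI BRAFp53, and 0 to 2 other claudins in COL BRAF, 0 to 1 in COL BRAFp53 and 0 to 1 in SI BRAF. A changed sign was met only by members not called with all libraries. For Cldn1, which held at most 14 counts in every library but 1, single values are left out of these counts and lists except in COL BRAF. Its sign was not stable, with ranges over these refits of -2.31 to 5.91 in COL BRAFp53, -2.24 to 0.46 in COL p53, -10.01 to 0.07 in COL BRAFp53 minus BRAF and -3.59 to 5.43 in SI minus COL for BRAFp53. Leaving out 1 library gave, in COL p53, Cldn2 0.0, Cldn3 -0.02 and Cldn7 0.08, and in COL BRAFp53, Cldn2 -0.03 and Cldn12 -0.04. In COL BRAFp53 minus BRAF it gave Cldn3 -0.09 and Cldn23 0.01 (range -0.25 to 0.05), and in SI BRAF, Cldn2 0.07. In SI p53 it gave Cldn8 -0.08 (range -1.08 to 0.63), Cldn12 -0.16, Cldn15 0.07 and Cldn23 -0.08, and in SI BRAFp53 minus BRAF, Cldn4 0.02. In SI minus COL it gave for BRAF Cldn2 -0.1, Cldn3 0.04, Cldn8 0.0 and Cldn23 -0.1, for BRAFp53 Cldn12 0.2 and Cldn15 -0.01, and off Cldn3 -0.13. Cldn3 gave -0.01 in COL BRAFp53 minus BRAF with the minimum of 10 counts, Cldn8 gave -0.16 (limma-voom) and -0.19 (replicate block) in SI p53, and Cldn12 gave 0.0 there with the 4 libraries alone.

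Depth limits Cldn1 throughout and Cldn8 in SI, where most libraries held under 100 counts. Each genotype and tissue is 1 culture, so no result separates genotype from donor.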
